A study of Rattus norvegicus with 138 samples.

Results

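Volumetric muscle loss (VML) is the removal of more muscle than regeneration can refill, and in this rat model it was followed from 3 to 28 days by RNA sequencing of the whole tibialis anterior (TA) muscle. The genes described here are 7 genes of myoblast fusion and of the satellite cell surface: Tmem8c, Cdh15, Cdh2, Sdc3, Sdc4, Itga7 and Cav3. They were taken by symbol from the deposited expression table and are 7 of its 16181 symbols. All rats were male Lewis rats of about 4 months. By the study's methods rats were given the slow-release opioid buprenorphine before surgery, and by the labels the defect was made under isoflurane. Control muscles were the left and right TA of 2 rats that had not been operated on, which the labels call sham at day 0 (4 muscles). Operated rats had a full-thickness punch defect in the TA of 1 leg, and gave that injured muscle and, in part of the rats, the uninjured contralateral TA. The defect was left unrepaired or was filled with minced muscle graft (MMG), small pieces of the rat's own muscle, and within each of these arms some rats ran and the others did not. What the running consisted of is not given in the sources used here.

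After libraries with fewer than 7000 symbols above 1 TPM (a transcript level corrected for length and scaled to a fixed sum in each library) were dropped, 114 muscles of 78 rats in 31 groups remained. Injured muscles at 3, 7, 14 and 28 days numbered 3, 8, 4 and 4 without repair and without running, and 7, 8, 4 and 4 with MMG and without running. In running rats there were 8, 4, 4 and 2 unrepaired and 6, 4, 4 and 2 grafted injured muscles. Contralateral muscles numbered 34, with 2 to 6 in a group and no running group at 28 days. Library names of control rats start with another prefix (TS4) than those of operated rats (TS5), and the labels do not say what the prefix stands for, so in a comparison with control the operation and whatever the prefix marks cannot be told apart. Contralateral muscles share the prefix with the injured muscles, but come from operated animals. The libraries kept had 7866 to 10948 symbols above 1 TPM, and read depth per library cannot be read from TPM.

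Satellite cells are the stem cells of skeletal muscle. They lie between the fiber and its basement membrane, where they are held by cadherins on the fiber side and by integrins and syndecans on the matrix side. After injury they divide as myoblasts, which leave the cycle, line up through cell adhesion molecules and fuse with each other or with a fiber. The fusion step needs Myomaker, the membrane protein that Tmem8c encodes (the current symbol is Mymk), which is made in fusing myoblasts and is switched off in mature fibers. The other 6 genes act around that step. Cdh15 (M-cadherin) and Cdh2 (N-cadherin) are calcium-dependent adhesion molecules of myogenic cells. Sdc3 and Sdc4 are heparan sulfate proteoglycans that serve as co-receptors for growth factors on satellite cells. Itga7 is the integrin alpha chain that binds laminin in the basement membrane, in myoblasts and in fibers. Cav3 is the muscle caveolin, which forms the caveolae of the fiber membrane.

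In control muscle the 7 genes spanned a wide range of length-corrected level. Cav3 was highest, at 155 ± 20 TPM (SD, n = 4), followed by Itga7 at 22.9 ± 4.0 TPM. Cdh15 at 9.09 ± 0.98 TPM and Sdc4 at 7.51 ± 4.8 TPM came next and overlapped, since Sdc4 ran from 1.59 to 13.1 TPM over the 4 muscles. Sdc3 stood at 3.69 ± 0.67 TPM, below every Cdh15 value but inside the range of Sdc4. Cdh2 at 0.15 ± 0.029 TPM and Tmem8c at 0.11 ± 0.076 TPM were close to absent, and their ranges of 0.12 to 0.18 TPM and 0.06 to 0.22 TPM overlapped.

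**Figure D1:**
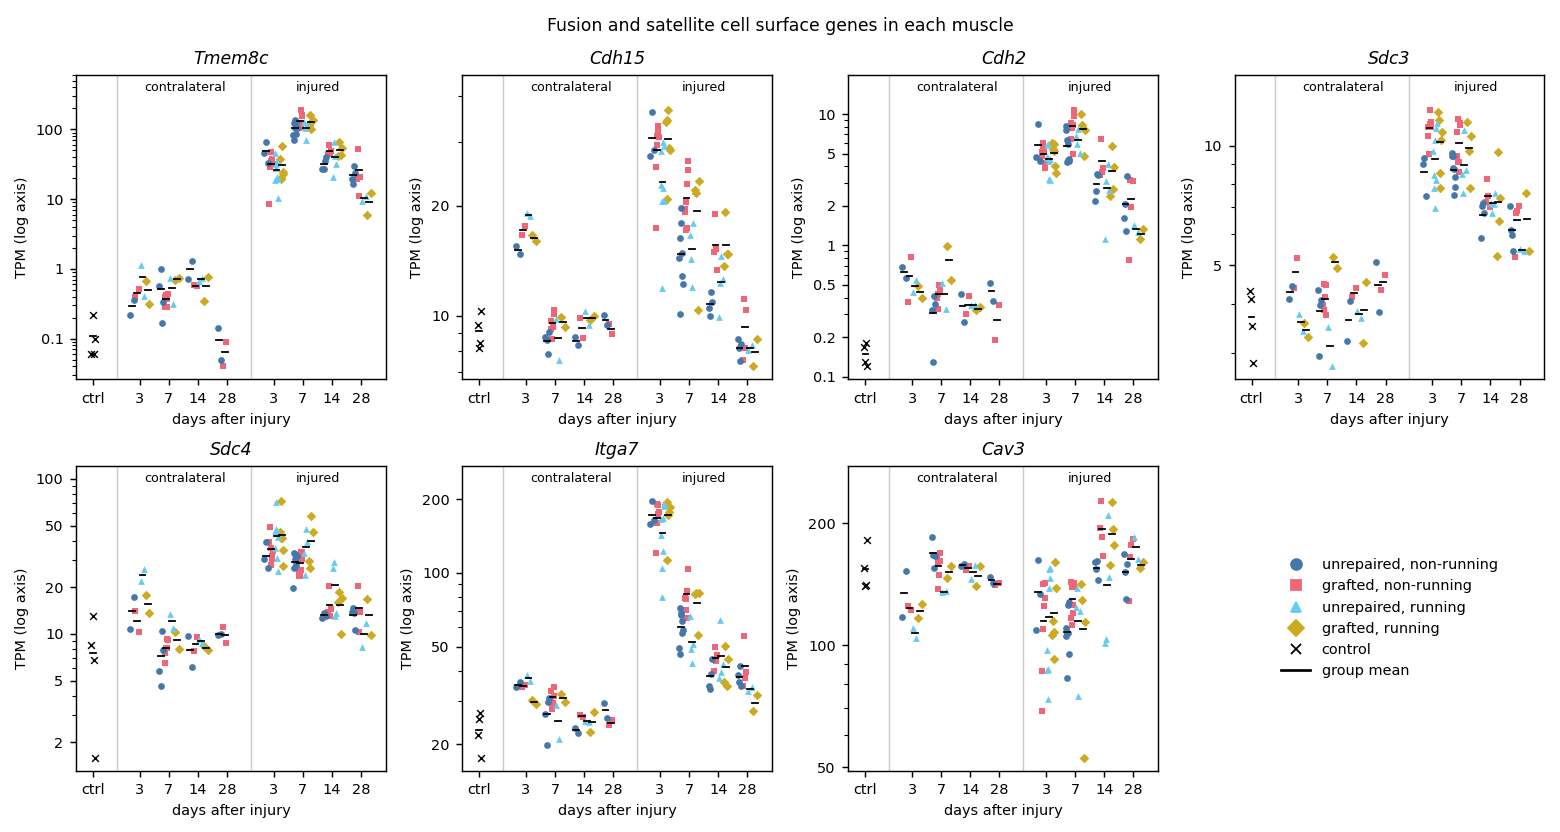
TPM of each gene in each of the 114 muscles (points, log axis) for control muscle (ctrl) and for contralateral and injured muscle by days after injury, with symbols for repair and running and a short bar at each group mean. Tmem8c in the 76 injured muscles (5.98 to 190 TPM) lay above all 38 uninjured muscles (at most 1.29 TPM), while Cav3 overlapped between injured and uninjured muscle at every day.

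All 114 muscles entered 1 limma model of log2(TPM + 1), fitted to the 11328 genes whose mean exceeded 1 TPM in at least 1 group, with Benjamini-Hochberg adjustment over those genes. A gene is said to have risen, fallen or changed, or to be called, where the adjusted p was under 0.05 and the log2 fold change went beyond 1 in either direction. TPM values sum to the same total in every library, and the median of all tested genes was itself above 0 in injured muscle. Against control that median was 0.96, 0.91, 0.53 and 0.52 on the log2 scale at 3, 7, 14 and 28 days. After the TPM values were divided by median-of-ratios size factors it was 0.11, 0.11, 0.04 and 0.06. The fold changes of the 7 genes are therefore given beside this median or beside the value after size factors. In whole-muscle RNA a gene's change in its cells and a change in the share of those cells cannot be told apart.

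Unrepaired injured muscle of non-running rats was set against control first. At 3 days 6 of the 7 genes were called, all higher, where 52.6% of all tested genes were called. At 7 days 5 were called, all higher, against 48.1% of all genes. At 14 and 28 days 2 genes were called, Tmem8c and Cdh2, both higher, against 25.5% and 21.3% of all genes. The median over the 7 genes was 2.18, 1.36, 0.72 and 0.71 at the 4 days, against the all-gene medians above. These comparisons share the 4 control muscles. With size factors the called genes numbered 5, 4, 2 and 2, against 40.8%, 35.6%, 21.4% and 14.4% of all genes, and Cav3 was then among them at 3 and 7 days, as lower.

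Tmem8c had the widest range of the 7 genes. The 4 control muscles gave 0.06, 0.22, 0.06 and 0.1 TPM. In unrepaired injured muscle of non-running rats Tmem8c stood at 45.9, 65.7 and 32.7 TPM at 3 days. At 7 days the 8 muscles ran from 71.2 to 137.5 TPM with a median of 105.9 TPM. All of these were far above control, and the 7-day muscles lay above the 3-day muscles. At 14 days Tmem8c stood at 27.1, 26.97, 34.7 and 39.7 TPM, and at 28 days at 19.2, 16.2, 29.6 and 23.4 TPM. The latest muscles thus overlapped those at 14 days and still exceeded the highest control by a wide margin.

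Against control the log2 difference of Tmem8c was 5.41 ± 0.34 (SE) at 3 days, 6.55 ± 0.27 at 7 days, 4.88 ± 0.31 at 14 days and 4.35 ± 0.31 at 28 days. The limma adjusted p was 1.84e-26, 1.25e-37, 1.6e-24 and 2.64e-21 in that order. These differences are on the log2(TPM + 1) scale, which understates the change of a gene whose control level lies under 1 TPM. After size factors they were 4.93, 6.13, 4.86 and 4.34, so the rescaling hardly moved them. From 3 to 7 days Tmem8c rose by 1.14 on the log2 scale (limma adjusted p = 0.00144), and without the muscle of rat 18 at 3 days the difference was 0.89 with an adjusted p of 0.0368, short of the fold threshold. With all libraries kept it was 0.79 with an adjusted p of 0.101, and not called. From 7 to 14 days it fell by 1.67 (limma adjusted p = 2.75e-07). Between 14 and 28 days the difference of -0.53 did not pass (limma adjusted p = 0.471).

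Grafted muscle followed the same days. Without running, Tmem8c at 3 days had a lowest value of 8.63 TPM, a median of 35.05 TPM and a highest of 47.0 TPM over 7 muscles. At 7 days the 8 muscles ran from 103.3 over a median of 115 to 190 TPM. Later values were 44.1, 59.2, 44.4 and 48.8 TPM at 14 days and 19.3, 52.7, 11.1 and 20.6 TPM at 28 days. The day of the peak was thus the same with and without MMG, and the 28-day grafted muscles were spread more widely than the unrepaired ones. Against the contralateral muscles of the same arm and day the difference was 4.38, 6.57, 4.98 and 4.44 on the log2 scale, called each time. In the unrepaired arm the corresponding differences were 5.20, 6.13, 4.042 and 4.37, and in running rats with both arms averaged 4.07, 6.14 and 4.76 at 3, 7 and 14 days, all of them called.

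Cdh2 was, like Tmem8c, near absent in control muscle, and its mean at 3 and 7 days was 5.85 and 5.71 TPM in unrepaired muscle of non-running rats. In the other arms the mean was lower at 3 than at 7 days, with 4.53 and 6.38 TPM in unrepaired running, 4.96 and 8.09 TPM in grafted non-running and 5.04 and 7.68 TPM in grafted running rats, a step that was not tested. Control muscles gave 0.17, 0.13, 0.18 and 0.12 TPM. Unrepaired injured muscles of non-running rats gave 4.68, 8.45 and 4.42 TPM at 3 days and 4.28 to 8.12 TPM at 7 days (median 5.20, n = 8). Every one of these was far above the highest control value. By 14 days the 4 muscles stood at 2.16, 2.60, 3.48 and 3.41 TPM, and at 28 days at 1.63, 2.06, 1.28 and 3.36 TPM. Cdh2 was thus lower at 14 and 28 days than at 3 and 7 days, with no muscle back in the control range. The step from 7 to 14 days was -0.76 on the log2 scale (limma adjusted p = 0.000153), short of the fold threshold. Over all groups injured muscle spanned 0.77 to 10.8 TPM and uninjured muscle 0.12 to 0.99 TPM, so that 1 grafted muscle at 28 days reached the upper contralateral values.

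The log2 difference of Cdh2 from control was 2.53 ± 0.22, 2.51 ± 0.18, 1.75 ± 0.21 and 1.38 ± 0.21 (SE) at the 4 days, with limma adjusted p of 4.1e-18, 3.64e-23, 5.02e-12 and 1.53e-08. After size factors it was 2.07, 2.12, 1.68 and 1.31, called on each day. Against contralateral muscle the unrepaired arm gave 2.02, 2.34, 1.53 and 1.05 and the grafted arm 1.91, 2.65, 1.95 and 1.28. All 8 were called, and the running rats gave 1.95, 2.31 and 1.59, also called. The call at 28 days without repair was the least firm: the difference was 0.98 without the contralateral muscle of rat 74, 0.86 without the injured muscle of rat 82 and 0.91 after size factors.

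Itga7 was at its highest on the first day sampled. Control muscles gave 21.9, 25.3, 26.7 and 17.6 TPM. Unrepaired injured muscles of non-running rats gave 158, 196 and 164 TPM at 3 days, and 46.5 to 72.0 TPM with a median of 61.2 TPM at 7 days (n = 8). The 3-day and 7-day ranges were well apart, and both were above control. Later values were 34.5, 33.6, 38.8 and 44.5 TPM at 14 days and 38.5, 35.8, 41.8 and 34.6 TPM at 28 days. These late muscles overlapped each other and stayed above the highest control and above the contralateral muscles of the same arm and day. In grafted muscle of non-running rats Itga7 ran from 120 to 192 TPM at 3 days (median 174, n = 7) and from 65.3 to 104.01 TPM at 7 days (median 79.02, n = 8).

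Against control Itga7 rose by a log2 difference of 2.87 ± 0.19 (SE) at 3 days and of 1.36 ± 0.15 at 7 days, with limma adjusted p of 1.58e-25 and 5.78e-14. At 14 and 28 days the difference was 0.71 both times with adjusted p of 0.000182 and 0.000202, short of the fold threshold. After size factors the 4 values were 1.75, 0.31, 0.05 and 0.06, so that the call at 3 days held and the call at 7 days was lost. From 3 to 7 days Itga7 fell by 1.51 on the log2 scale (limma adjusted p = 4.17e-12), and by 1.44 after size factors. The same was seen against contralateral muscle, where the called differences were 2.26 and 1.15 without repair, 2.23 and 1.35 with MMG, and 2.18 and 1.15 in running rats at 3 and 7 days. After size factors the 3-day values were 1.69, 1.52 and 1.51, each called, and the 7-day values were 0.08, 0.42 and 0.28, none called.

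Cdh15 also peaked at 3 days, but it was not near absent before injury. Control muscles gave 9.45, 8.17, 8.43 and 10.3 TPM. Unrepaired injured muscles of non-running rats gave 27.4, 36.3 and 28.5 TPM at 3 days, all above every control. At 7 days the 8 muscles ran from 10.1 to 19.7 TPM with a median of 14.6 TPM, so that the lowest of them lay inside the control range. At 14 days they were 10.5, 10.01, 11.6 and 10.9 TPM and at 28 days 8.63, 8.14, 7.51 and 8.35 TPM. By then Cdh15 stood at the lower end of the control range or just below it. In the grafted arm without running, Cdh15 was 17.4 to 33.2 TPM at 3 days (median 30.9, n = 7), 17.1 to 26.6 TPM at 7 days (median 20.04, n = 8), then 14.97, 18.98, 15.2 and 13.4 TPM at 14 days and 7.55, 11.1, 8.18 and 10.4 TPM at 28 days.

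Cdh15 rose against control at 3 days by 1.65 ± 0.19 (SE) on the log2 scale, with a limma adjusted p of 2.26e-13. At 7 days the difference was 0.63 ± 0.15 (adjusted p = 8.12e-05, short of the fold threshold) and at 14 and 28 days 0.22 and -0.14 with adjusted p of 0.235 and 0.48. After size factors these were 0.56, -0.38, -0.41 and -0.76, none called, so the direction at 7 and 14 days turned with the scaling. From 3 to 7 days Cdh15 fell by 1.02 on the log2 scale (limma adjusted p = 3.63e-07). Without the 3-day muscle of rat 17 that difference was -0.90 and after size factors -0.94, both short of the threshold. Against contralateral muscle Cdh15 was called higher at 7 days in the grafted arm, with a log2 difference of 1.05 ± 0.13 (adjusted p = 8.84e-12), and after size factors that difference was 0.16. In the unrepaired arm at 3 days it lay at 0.97, and it passed 1 without the contralateral muscle of rat 10 (1.003), the injured muscle of that rat (1.04) or the injured muscle of rat 18 (1.01). In the unrepaired arm at 7 days the value of 0.70 turned to -0.31 after size factors.

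The 2 syndecans moved over ranges of different width. Sdc4 stood at 8.52, 13.1, 6.79 and 1.59 TPM in the 4 control muscles, the widest relative spread of the 7 genes there after Tmem8c. Unrepaired injured muscles of non-running rats gave 30.3, 39.2 and 26.5 TPM at 3 days and 19.9 to 33.4 TPM at 7 days (median 29.8, n = 8), above all controls on both days. Later Sdc4 stood at 12.7, 13.7, 13.3 and 13.1 TPM (14 days) and at 13.9, 14.8, 13.7 and 10.6 TPM (28 days), near the highest control muscle. Sdc3 moved over a narrower range, from 4.31, 4.12, 3.51 and 2.83 TPM in control to 8.97, 9.29 and 7.45 TPM at 3 days. At 7 days Sdc3 was 7.52 to 9.56 TPM (median 8.74, n = 8). No injured muscle of these groups overlapped control at either day. At 14 days Sdc3 stood at 5.84, 7.03, 7.17 and 6.76 TPM and at 28 days at 7.05, 6.12, 5.97 and 5.43 TPM.

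Against control Sdc4 rose by 2.18 ± 0.29 and 2.04 ± 0.23 (SE) on the log2 scale at 3 and 7 days, with limma adjusted p of 8.07e-11 and 2.02e-13. After size factors these were 1.17 and 1.10, still called. At 14 and 28 days the differences of 0.98 and 0.97 lay just under the fold threshold with adjusted p of 0.000801 and 0.000869. Without control replicate 1, 2 or 3 they were 1.11, 1.30 and 1.01 at both days and called. Without control replicate 4, the muscle at 1.59 TPM, both were 0.48, with limma adjusted p of 0.087 and 0.0922. Without the injured muscle of rat 82 the value at 28 days was 1.07 and called. From 7 to 14 days Sdc4 fell by 1.07 on the log2 scale (limma adjusted p = 4.49e-05), and after size factors the difference was -0.68, short of the threshold. Against contralateral muscle Sdc4 was called higher in all 3 comparisons at 3 days and all 3 at 7 days, with differences of 1.15, 1.47 and 1.07 and of 1.91, 1.69 and 1.70 for unrepaired, grafted and running rats. Without the contralateral muscle of rat 10 the first of these was 0.84 with an adjusted p of 0.0784, and without that of rat 6 the running rats at 3 days gave 0.98. At 14 days Sdc4 differed by 0.71 in the unrepaired arm and by 0.92 in running rats, not called, and passed 1 when contralateral replicate 1 was left out of the first (1.001) or injured replicate 3 of either arm out of the second (both 1.01). After size factors none of the 6 was called, with values from 0.41 to 0.92.

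Sdc3 differed from control by 1.03 ± 0.13 and 1.06 ± 0.11 (SE) on the log2 scale at 3 and 7 days, with limma adjusted p of 2.54e-11 and 1.38e-15. These differences passed the threshold, yet they exceeded the all-gene median by 0.07 and 0.14, and after size factors they were 0.06 and 0.14. Without control replicate 4, the lowest control at 2.83 TPM, they were 0.94 and 0.96, and without the injured muscle of rat 17 the first was 0.98. At 14 and 28 days the differences were 0.72 and 0.61, not called. Against contralateral muscle Sdc3 stood at 0.85 and 1.01 in unrepaired, at 1.06 and 1.12 in grafted and at 1.23 and 1.04 in running rats at 3 and 7 days, and all but the first were called. After size factors the 6 values were 0.35, 0.08, 0.42, 0.30, 0.64 and 0.28, none called. On TPM as deposited, the call of 1.01 became 0.92 without contralateral replicate 4 of its group, that of 1.06 became 0.96 without the contralateral muscle of rat 13, and that of 1.04 became 0.98 without replicate 2 of the unrepaired running contralateral muscles. Without the injured muscle of rat 31 that last difference was 0.996.

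Cav3 was the 1 of the 7 genes that was not called higher in any comparison. Control muscles gave 155, 140, 141.2 and 182 TPM. Unrepaired injured muscles of non-running rats gave 108.9, 163 and 134.1 TPM at 3 days and 83.1 to 127.9 TPM at 7 days (median 107.3, n = 8), so that all 7-day muscles lay below every control. The values were 160, 155, 161 and 145 TPM at 14 days and 168, 152, 130 and 159 TPM at 28 days, across the control range. The log2 difference from control was -0.20 at 3 days (limma adjusted p = 0.363), -0.52 at 7 days (adjusted p = 0.00331), 0.01 at 14 days and -0.02 at 28 days, and none was called. Measured from the all-gene median the difference was -1.16 and -1.44 at 3 and 7 days. After size factors its difference was -1.35 and -1.60, both called lower, and -0.67 and -0.69 at the later days, so that the direction at 14 days turned with the scaling. In grafted muscle of non-running rats Cav3 ran from 68.8 to 142.4 TPM at 3 days (median 124.6, n = 7) and from 112 to 143.6 TPM at 7 days (median 132.8, n = 8). It stood at 194, 227, 185 and 166 TPM at 14 days, where the difference from contralateral muscle was 0.30 on TPM as deposited and -0.40 after size factors, neither called. From 7 to 14 days the difference was 0.53 (limma adjusted p = 0.00408), not called, and 0.93 after size factors.

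Among the 4 genes matched in the RefSeq promoter table used here (Cdh15, Sdc3, Sdc4 and Cav3; build GRCr8), Cav3 was also the 1 whose 250 bases before the start held the E-box CAGCTG, a core bound by the MyoD family of myogenic factors and by other factors. It is shown here because it belongs to the 1 gene without a called rise. The letters are the strand of the gene, chr4:147137743-147137992, and capitals mark the E-box, whose first base lies 13 bases before the start. The motif is the same on both strands.

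Cav3 promoter: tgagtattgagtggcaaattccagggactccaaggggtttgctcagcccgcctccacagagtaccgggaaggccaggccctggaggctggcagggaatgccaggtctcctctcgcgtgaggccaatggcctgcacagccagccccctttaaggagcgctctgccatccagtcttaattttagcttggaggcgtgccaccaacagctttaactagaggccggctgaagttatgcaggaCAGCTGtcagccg

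Of 33469 promoter windows of that length, 4007 (12%) held the motif. The match is a description of the letters and not evidence of binding.

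**Figure D2:**
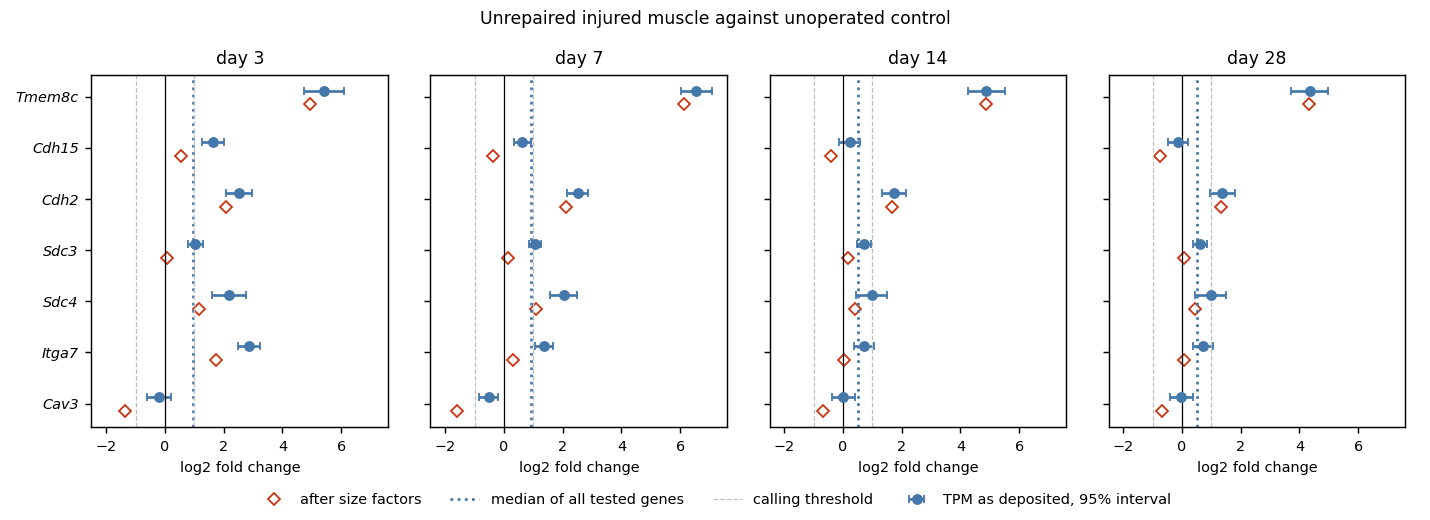
Log2 fold change of log2(TPM + 1) for each gene in unrepaired injured muscle of non-running rats against control at each day. Filled points with bars are the limma estimates with 95% intervals on TPM as deposited, open diamonds the estimates after size factors, the dotted line the median of all tested genes and dashed lines the threshold of 1. Tmem8c and Cdh2 stayed beyond the threshold on both scales at all 4 days, Sdc3 sat on the all-gene median, and Cav3 lay to its left.

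The same genes were then set against contralateral muscle, whose libraries carry the same name prefix as those of injured muscle. Without repair 4, 5, 2 and 2 of the 7 genes were called at 3, 7, 14 and 28 days, all higher, against 38.2%, 47.4%, 21.1% and 13.3% of all genes. With MMG 5, 6, 2 and 2 were called, all higher, against 44%, 46.2%, 26.1% and 19.1% of all genes. In running rats, both arms averaged, 5, 5 and 2 were called at 3, 7 and 14 days, all higher, against 42.1%, 43.7% and 25.2%. With size factors the counts were 3, 3, 2 and 1 without repair, against 33.8%, 31.1%, 14.1% and 8.62% of all genes. They were 3, 3, 2 and 2 with MMG, against 37%, 34.5%, 19.2% and 12.8%, and 3, 3 and 2 in running rats, against 37.5%, 33.1% and 18.7%. Cav3 was then among the called genes, as lower, at 7 days in each of the 3. At 14 and 28 days Tmem8c and Cdh2 were the called genes on TPM as deposited.

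Rats that gave both muscles allow the same view within the animal. Of 34 such rats, all had more Tmem8c in the injured muscle than in the contralateral one, by 3.19 to 7.07 on the log2 scale. Cdh2, Sdc3, Sdc4 and Itga7 were likewise higher in the injured muscle of all 34, with medians of 2.15, 0.92, 1.38 and 1.26. Cdh15 was higher in 30 of 34, and 3 of the 4 exceptions were among the 4 rats of 28 days. Cav3 was lower in 23 of 34, namely in 7 of 8 rats at 3 days, in 12 of 14 at 7 days, in 3 of 8 at 14 days and in 1 of 4 at 28 days. These directions are those of TPM as deposited. Once size factors were applied, the group differences of Cdh15 turned negative in the unrepaired arm at 7 and 14 days, in the grafted arm at 3 and 28 days and in running rats at 3, 7 and 14 days, and those of Cav3 were negative in all 11 comparisons with contralateral muscle. At 28 days Itga7 and Sdc4 in the unrepaired arm (-0.02 and -0.07) and Sdc3 and Sdc4 in the grafted arm (-0.07 and -0.06) also turned, none of them called.

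**Figure D3:**
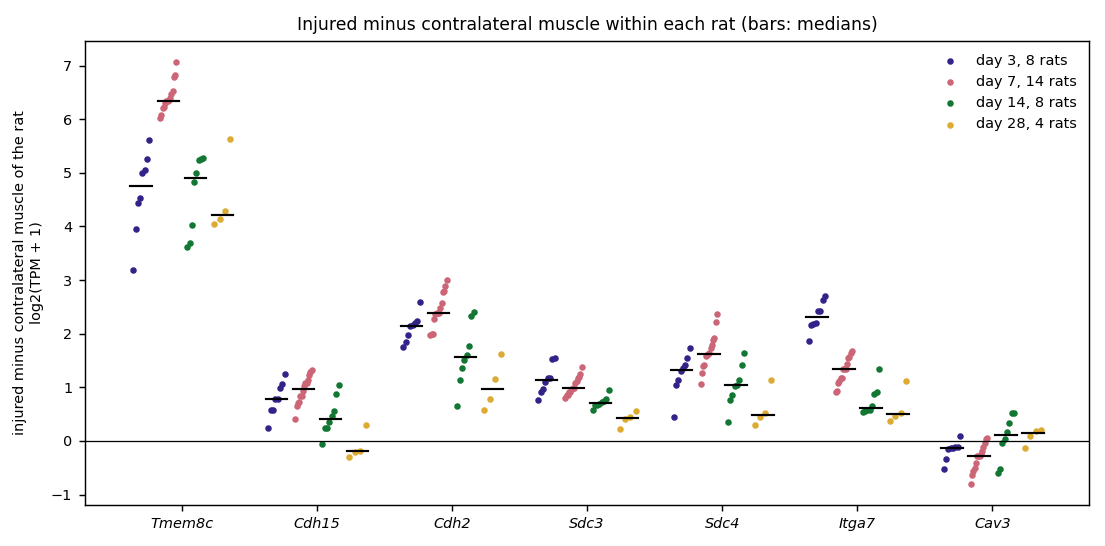
Injured minus contralateral muscle of the same rat in log2(TPM + 1) for each gene, with 1 point per rat, colors for the day and bars at the medians. Tmem8c differences were largest at 7 days (median 6.35 in 14 rats), those of Itga7 at 3 days (median 2.31 in 8 rats), and Cav3 differences lay on both sides of 0. After size factors the group differences of Cav3 were all negative.

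The contralateral muscle itself had its own day pattern. Against control, over all non-running groups, none of the 7 genes was called by limma, and 1.39% of all genes were called. An unadjusted p under 0.05 was reached by 2 of the 7 and by 38.2% of all genes. Sdc4 differed by 0.52 ± 0.21 (SE, adjusted p = 0.0516) and Itga7 by 0.31 ± 0.13 (adjusted p = 0.0797). With a pseudocount of 0.1 TPM in place of 1, Tmem8c and Cdh2 were called higher in contralateral muscle, by 1.10 and 1.00. Their contralateral levels were 0.04 to 1.29 TPM and 0.13 to 0.99 TPM, close to the lower end of what TPM resolves.

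Cdh15 at 3 days was the plainest feature there. In the 8 contralateral muscles of 3 days it stood at 15.5 and 14.7 TPM (unrepaired, non-running), 16.6 and 17.7 TPM (grafted, non-running), 19.1 and 18.7 TPM (unrepaired, running) and 16.7 and 16 TPM (grafted, running). All other contralateral muscles, 26 at later days, lay between 7.55 and 10.4 TPM, and control muscles between 8.17 and 10.3 TPM. On TPM as deposited the groups did not overlap, but once the values were divided by size factors they did. Sdc4 also stood higher, with 10.3 to 26.1 TPM at 3 days (median 15.6, n = 8) against 4.64 to 13.3 TPM later (median 8.74, n = 26), with overlap. The comparison of day 3 with days 7 and 14 was added after these values were seen. In it Cdh15 differed by 0.80 ± 0.10 (SE) on the log2 scale (limma adjusted p = 1.09e-10) and Sdc4 by 0.80 ± 0.16 (adjusted p = 8.03e-06). Neither reached the fold threshold, and none of the 7 genes was called, where 2.28% of all genes were called. An unadjusted p under 0.05 was reached by 4 of the 7 and by 70.9% of all genes. The all-gene median of that comparison was 0.32, and after size factors both differences were 0.40.

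Itga7 and Cav3 differed in that comparison by 0.36 (adjusted p = 0.0015) and -0.33 (adjusted p = 0.00898), and after size factors by -0.07 and -0.78. All contralateral rats of 3 days have rat numbers of 32 or below. The 6 contralateral muscles at 7 days with such numbers had Cdh15 between 7.55 and 9.95 TPM, below the lowest of the 3-day muscles at 14.7 TPM. The 4 myogenic cell markers summed to 62.3 to 147 TPM in contralateral muscle at 3 days against 30.2 to 71.4 TPM at 7 days, and the 8 fiber markers to 122444 to 171422 TPM against 157919 to 187820 TPM. Their part in the Cdh15 values was not tested.

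**Figure D4:**
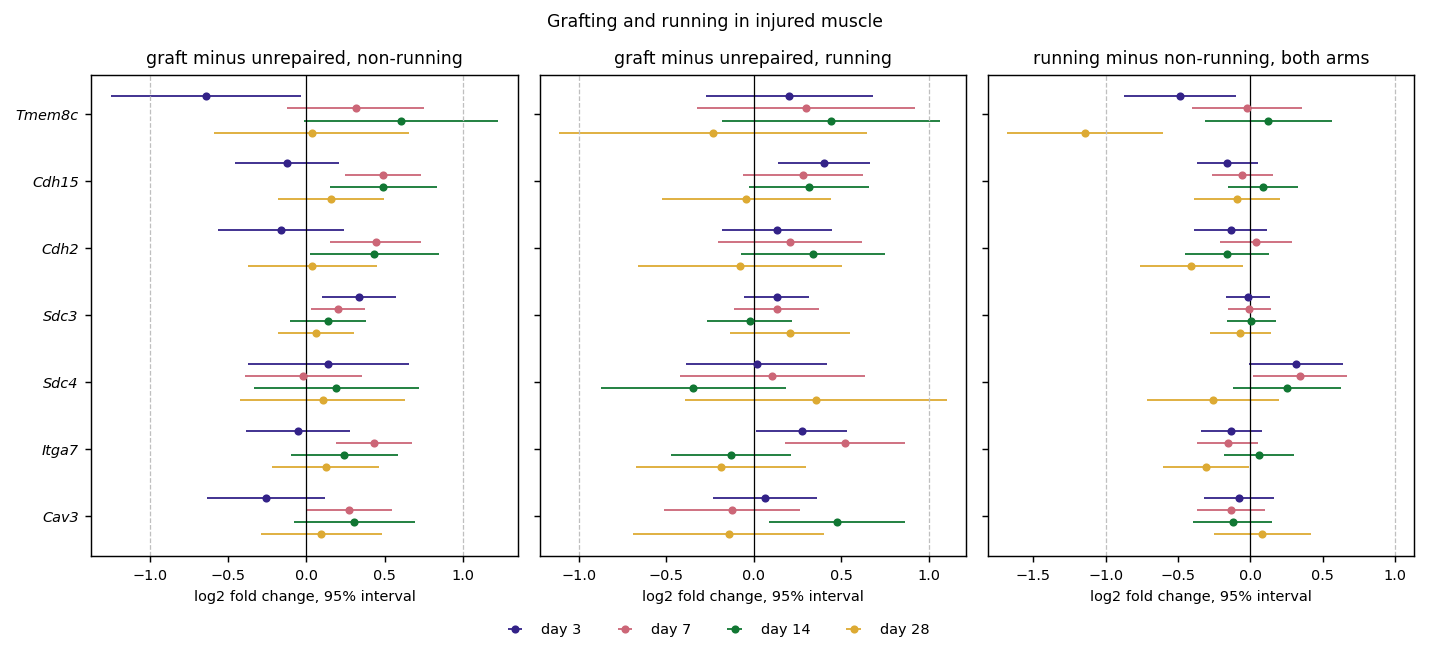
Log2 fold change of log2(TPM + 1) with 95% intervals (limma) in injured muscle for MMG against no repair in non-running rats, MMG against no repair in running rats, and running against non-running rats with both arms averaged. Colors mark the day and dashed lines the threshold of 1 in either direction. No estimate of the first and second comparison passed 1, and Tmem8c at 28 days in running rats (-1.14) is the 1 estimate of the third beyond the threshold.

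Whether MMG moved these genes was asked within injured muscle. By limma none of the 7 genes was called for MMG against no repair on any day. In non-running rats 2, 5, 2 and 0 of them had an unadjusted p under 0.05 at 3, 7, 14 and 28 days, and 0.00883%, 0.0883%, 0.0265% and 0% of all genes were called. An unadjusted p under 0.05 was reached by 17.3%, 27%, 5.23% and 1.24% of all genes. In running rats 2, 1, 1 and 0 of the 7 had an unadjusted p under 0.05, with 0%, 0%, 0.0177% and 0.0177% of all genes called. There, 229, 783, 223 and 231 genes had an unadjusted p under 0.05. Since so few genes of the whole table were called, the absence of a call among 7 is close to the background.

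The nearest to a call were at 7 days without running, where Cdh15, Cdh2 and Itga7 passed the adjusted p but not the fold threshold. Cdh15 was 17.1 to 26.6 TPM with MMG (median 20.04, n = 8) against 10.1 to 19.7 TPM without repair (median 14.6, n = 8), with overlapping ranges. The log2 difference was 0.49 ± 0.12 (SE, adjusted p = 0.00729). Itga7 differed by 0.43 ± 0.12 (adjusted p = 0.0187) and Cdh2 by 0.44 ± 0.15 (adjusted p = 0.0436). The all-gene median was 0.11, and after size factors the 3 differences were 0.37, 0.31 and 0.32, none of which passed the adjusted p. In running rats at the same day the differences were 0.28 for Cdh15, 0.52 for Itga7 and 0.21 for Cdh2, with an adjusted p of 0.617 or above.

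For Tmem8c the 95% interval of the difference between MMG and no repair ran from -1.25 to -0.04 at 3 days, from -0.12 to 0.76 at 7 days, from -0.02 to 1.23 at 14 days and from -0.59 to 0.66 at 28 days in non-running rats. The interval at 3 days left out 0, but its adjusted p was 0.269, and those at 3 and 14 days reached past 1 on the log2 scale. The difference between the arms in injured minus contralateral muscle was tested as well. None of the 7 genes was called by limma, none had an unadjusted p under 0.05, and 0% of all genes were called at 3, 7, 14 and 28 days (237, 1308, 100 and 63 genes had an unadjusted p under 0.05). The value for Tmem8c was -0.81, 0.44, 0.94 and 0.07 at the 4 days, with standard errors of 0.54, 0.36, 0.54 and 0.54.

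Running was compared with no running in injured muscle with both arms averaged. At 3, 7 and 14 days limma called none of the 7 genes, with 1, 1 and 0 at an unadjusted p under 0.05, and 0.0177%, 0% and 0% of all genes (1815, 1786 and 586 genes had an unadjusted p under 0.05). Tmem8c in running rats at 3 days ran from 10.4 to 45.8 TPM without repair (median 24.2, n = 8) and from 19.4 to 58.2 TPM with MMG (median 23.6, n = 6). At 14 days it was 20.8, 64.99, 41.2 and 32.2 TPM without repair and 42.1, 66.6, 42.3 and 53.8 TPM with MMG. These ranges overlapped those of the non-running rats given above. The log2 difference of running from non-running rats was -0.49, -0.02 and 0.12 for Tmem8c and 0.32, 0.34 and 0.25 for Sdc4 at 3, 7 and 14 days, none past the adjusted p. Sdc4 at 3 days reached 71.5 and 71.8 TPM in 2 running rats, rats 29 and 25, against at most 49.0 TPM in non-running rats, and at 14 days 2 unrepaired running rats stood at 26.4 and 29.2 TPM against 13.1 and 13.7 TPM in the other two of that group. In contralateral muscle running also went with none called, 1 of 7 at an unadjusted p under 0.05 (Sdc4, 0.36 ± 0.15, limma adjusted p = 0.324), 0% of all genes called and 1260 genes at an unadjusted p under 0.05.

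At 28 days 1 of the 7 genes was called, where 0.309% of all genes were called, and it was Tmem8c. It stood at 9.38 and 11.1 TPM in unrepaired and at 5.98 and 12.1 TPM in grafted running rats. In non-running rats it was 16.2 to 29.6 TPM without repair and 11.1 to 52.7 TPM with MMG, 4 muscles each. Only the lowest non-running muscle, at 11.1 TPM, lay within the range of the running ones. The 8 libraries of 4 further running rats at 28 days have contradictory labels and entered no group: 4 of them stood at 12.1, 13.9, 14.9 and 22.3 TPM, which overlaps the non-running muscles, and the other 4 at 0.47 TPM or below. Tmem8c fell by 1.14 ± 0.27 (SE) on the log2 scale in running rats (limma adjusted p = 0.0106) and after size factors by 1.04. The call rested on few muscles: without grafted running rat 87 the difference was -0.92 with an adjusted p of 0.269, without unrepaired running rat 85 it was -1.09 with 0.165, and without grafted non-running rat 76 it was -0.94 with 0.0973. With all libraries kept the difference was the same and the adjusted p 0.121. The 4 myogenic cell markers moved with Tmem8c there: 1 of 4 was called lower on both scales, and their median was -0.65 against -0.09 over all genes. Their part in the Tmem8c difference was not tested. Cdh2 differed by -0.41 (adjusted p = 0.277) and Itga7 by -0.31 (adjusted p = 0.34) in that comparison.

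Steps between days in unrepaired injured muscle of non-running rats called 3 of the 7 genes from 3 to 7 days (Tmem8c higher, Cdh15 and Itga7 lower), against 7.34% of all genes. From 7 to 14 days 2 were called, Tmem8c and Sdc4, both lower, against 6.82%. From 14 to 28 days limma called none, and 0.459% of all genes were called. An unadjusted p under 0.05 was reached by 1 of the 7 and by 13.8% of all genes. Itga7, Cdh15 and Tmem8c thus had different days of highest level: the first pair at 3 days and Tmem8c at 7 days, in both repair arms and with and without running. In the 3-day injured muscles of all 4 arms Itga7 spanned 79.5 to 196 TPM and Tmem8c 8.63 to 65.7 TPM. At 7 days Itga7 spanned 43.0 to 104.01 TPM and Tmem8c 69.3 to 190 TPM, so that the ranges of Tmem8c at the 2 days did not overlap.

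The likeness of the genes to each other was read over the 31 group means of log2(TPM + 1). Tmem8c and Cdh2 had a Pearson r of 0.97, Cdh2 and Sdc3 one of 0.96, Sdc4 and Itga7 one of 0.88 and Cdh15 and Itga7 one of 0.87. Tmem8c with Cdh15 gave 0.50. Sdc3 gave 0.92 with Tmem8c, 0.85 with Itga7 and 0.65 with Cdh15. Cav3 was negative with each of the other 6, from -0.24 with Tmem8c to -0.73 with Sdc4. These are descriptions over groups of unequal size, which share the TPM scale and the split into injured and uninjured muscle.

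Over the whole table the genes with the highest r to each of the 7 were found in the same way. For Tmem8c they were Chrng (0.994), the fetal gamma subunit of the muscle acetylcholine receptor, C1qtnf5 (0.993) and LOC691995 (0.992). For Cdh2 they were Cnn3 (0.995), an actin-binding calponin, the Wnt receptor Fzd2 (0.994) and Ajuba (0.994), a LIM protein of cell junctions. Those of Sdc3 were Camkk2, Plxnd1 and Flna (0.983 to 0.985), those of Sdc4 Swi5, Itpa and Ppil1 (0.979 to 0.982), and those of Itga7 Ghdc, Cndp2 and Tamm41 (0.985 to 0.987). Cdh15 had Arf1, Gpatch4 and Thg1l (0.941 to 0.946). Cav3 had no gene as close, with Rtn4, Stk32a and Trim72 at 0.777 to 0.785. Trim72 encodes a membrane repair protein of muscle.

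Other genes of fusion and of the satellite cell surface were read as lists. Of 59 listed genes of the fusion machinery and its regulators, 44 were in the table and 39 were tested. In unrepaired injured against contralateral muscle of non-running rats 21 of them were called higher and 1 lower at 3 days, 27 and 0 at 7 days, 18 and 0 at 14 days and 11 and 0 at 28 days, where 38.2%, 47.4%, 21.1% and 13.3% of all genes were called in either direction. The list's median was 1.10, 1.37, 0.84 and 0.63 on the log2 scale, against 0.54, 0.91, 0.50 and 0.38 over all genes. After size factors 11, 12, 8 and 8 were called higher and 2, 2, 0 and 0 lower, against 33.8%, 31.1%, 14.1% and 8.62% of all genes called in either direction. Of 31 listed genes of the satellite cell surface, 28 were in the table and 24 were tested, and 13, 20, 14 and 13 were called higher, with 1 lower at 3 days. The median of that list was 1.04, 1.93, 1.24 and 1.06. After size factors 7, 13, 10 and 5 of it were called higher and 1 lower at 3 days. Neither list had a called gene for MMG against no repair at any day.

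Ncam1, the neural cell adhesion molecule carried by activated satellite cells, myoblasts and denervated fibers, had the largest difference of both lists at each day. Its mean rose from 3.33 TPM in contralateral to 82.2 TPM in injured muscle at 3 days and from 2.77 to 136.6 TPM at 7 days, and stood at 33.5 TPM at 14 days and 34.3 TPM at 28 days. The log2 differences were 4.23 at 3 days, 3.34 at 14 days and 3.38 at 28 days, and the difference at 7 days was larger than these. Anxa1, an annexin active in inflammation and in membrane repair, was among the top 3 at each day, with differences of 3.84, 4.16, 2.51 and 2.27. The other leading genes were the tetraspanin Cd82 at 3 days (4.09), the syndecan Sdc1 at 7 days (3.82), the ferlin Myof at 14 days (2.47) and the annexin Anxa5 at 28 days (2.08). At 3 days Capn3, the muscle calpain, was the lowest of the lists at -1.23, followed by Chodl at -1.11, and on TPM as deposited neither list had a gene called lower later.

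Markers of fibers, myogenic cells and other cells were read in the same muscles. The 8 fiber markers, Acta1 and Ckm among them, summed to 177228 to 220258 TPM in control muscle, so that the defining genes of the labelled muscle were present, and to 17339 to 62694 TPM in injured muscle at 3 days (median 33082, n = 24). At 7, 14 and 28 days the injured medians were 62866, 134254 and 156573 TPM. The 4 myogenic cell markers (Pax7, Myf5, Myod1 and Myog) summed to 22.8 to 49.6 TPM in control and to 254 to 714 TPM, 168 to 767 TPM, 147 to 378 TPM and 76.2 to 516 TPM in injured muscle at the 4 days, without overlap. Macrophage markers (9 of 10 in the table) went from 24.2 to 49.2 TPM in control to a median of 5826 TPM at 3 days and 434 TPM at 28 days. Fibroblast markers (6 of 6) went from 71.2 to 232 TPM to a median of 7109 TPM at 3 days, 11233 TPM at 7 days and 2625 TPM at 28 days.

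In the unrepaired arm against contralateral muscle 8, 6, 0 and 0 of 8 fiber markers were called lower at 3, 7, 14 and 28 days on TPM as deposited, and 8, 8, 6 and 3 after size factors. All 9 macrophage markers were called higher at 3, 7 and 14 days and 8 at 28 days on both scales. Fibroblast markers were higher in 5, 6, 6 and 6 of 6, and in 4, 6, 6 and 5 after size factors. Myogenic cell markers were higher in 3 of 4 at each day, and in 2 of 4 after size factors. Endothelial markers were called higher in 2, 6, 4 and 2 of 7, but in 1, 0, 0 and 0 after size factors. Mural cell markers were called higher in 3, 5, 4 and 2 of 6, and after size factors in 1, 2, 2 and 1 with 2 lower at 3 days. Of 4 Schwann cell markers tested 0, 1, 2 and 2 were called higher, and after size factors 0, 1, 1 and 1 with 1 lower at 7 days. The shares called over all genes are those given above for the same comparisons. No marker of any list was at 0 in all muscles of a group class. Cdh2, Sdc3, Sdc4 and Itga7 are also made by cells outside the myogenic lineage, and the part of these cells in their levels was not tested.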

How the data were processed

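Total RNA of rat TA muscle (miRNeasy) was sequenced as TruSeq libraries with paired ends on an Illumina HiSeq. The authors quantified transcripts with kallisto against the Genbank annotation of rat genome build 6.0 and deposited TPM values of all libraries by gene symbol in 1 table. The kallisto version is not given in the sources used here. TPM keeps no read depth, so the precision comes from the spread between muscles alone. The last of 16182 symbols was incomplete, which left 16181.

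Of 138 libraries, 9 had contradictory labels and stayed in no group, and 13 of the other 129 had fewer than 7000 symbols above 1 TPM (901 to 5712) and were dropped. The 116 kept were grouped by the labels, and libraries of 1 muscle were averaged on TPM (2 muscles), which gave 114 muscles of 78 rats. limma 3.58.1 (R 4.3.3, statmod 1.5.0) was fitted to log2(TPM + 1) with 1 mean per group and an intensity trend, 83 residual degrees of freedom, and a call needed an adjusted p under 0.05 and a log2 fold change beyond 1, thresholds that follow the study's methods. The labels give separate rats, except that control muscles are left and right of 2 rats. Injured and contralateral muscles of 1 rat share the animal: deviations from group means correlated by 0.0722 on average in 36 same-rat pairs, 15 of them above 0.1, and by -0.0002 between rats, and limma's estimate of the block correlation was 0.026.

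The 7 genes and the lists of other genes and markers were chosen with earlier results of these data known. Named from the lists were up to 3 highest and 3 lowest called genes per day of unrepaired injured against contralateral muscle, and for each of the 7 genes the 3 with the highest r. Alternatives were a pseudocount of 0.1, no filter on low values, size factors, all libraries, the rat as a block, non-running groups alone, rat number (32 or below) as a covariate, adjusted p alone, control muscles averaged per rat, and each muscle left out in groups of 2 to 5. The contralateral comparison of days and a fit without 7 outlying muscles were added after the data were seen. The limma code was tested on simulated data. Promoter letters are from RefSeq (GRCr8), and a genome of the table's build was not used here. Python 3.11.15, numpy 2.4.6, pandas 2.3.3 and matplotlib 3.10.9 were used for the rest.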

Additional observations from a re-analysis of the deposited data

Results flagged for a closer look

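In 112 groups of a gene (4 to 8 muscles each) the outermost muscle was compared with the rest by Dixon's ratio on the log2 scale, and 10 values of 7 muscles lay past the limit. Chance gives about 1 in 20. In grafted non-running muscle at 3 days rat 9 was lowest for Tmem8c (8.63 TPM, next 29.1 TPM), Cdh15 (17.35 TPM, next 25.5 TPM) and Itga7 (120.31 TPM, next 159 TPM). Its fiber markers summed to 17339 TPM (19443 to 44625 TPM in the others) and its myogenic cell markers to 264 TPM (441 to 714 TPM). In grafted running muscle at 7 days rat 27 was lowest for Cdh15 (10.37 TPM, next 21.7 TPM) and Itga7 (55.82 TPM, next 82.3 TPM), while its myogenic cell markers were highest (579 TPM, the others 324 to 480 TPM). In grafted running muscle at 3 days rat 25 was lowest for Itga7 (113.18 TPM, next 172 TPM), with fiber markers at 21083 TPM (24400 to 39925 TPM in the others) and myogenic cell markers at 312 TPM (379 to 622 TPM).

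Single values past the limit were Cdh15 at 11.94 TPM in unrepaired running rat 30 at 3 days (next 20.7 TPM), Cdh2 at 6.47 TPM as the highest of the grafted non-running muscles at 14 days (next 3.87 TPM), Sdc3 at 5.24 TPM in grafted non-running rat 75 at 28 days (next 6.78 TPM) and Sdc4 at 19.9 TPM in unrepaired non-running rat 11 at 7 days (next 26.7 TPM). Myogenic cell markers of rat 11 summed to 168 TPM (337 to 526.3 TPM in the others), and macrophage markers of rat 30 to 6278 TPM (4053 to 6165 TPM). The grafted muscle at 14 days had macrophage markers at 956 TPM (594 to 639 TPM) and fiber markers at 119312 TPM (129875 to 135256 TPM). Those of rat 75 lay inside the range of the others of its group for all 3 lists. The part of these marker values in the outlying levels was not tested. Without the 7 muscles 2 of 161 values of single genes lost their call, Sdc3 in unrepaired injured against contralateral muscle at 7 days (0.99) and Sdc4 in running rats at 3 days (0.98), and all 23 counts of called genes that use these groups stayed within 1.5 times.

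A further 8 libraries of running rats at 28 days have titles and labels that name opposite muscles and entered no comparison. Set against the highest control muscle, Tmem8c was above 0.22 TPM in 6 of them, Cdh2 above 0.18 TPM in 8, Sdc3 above 4.31 TPM in 5, Itga7 above 26.7 TPM in 4, Cdh15 above 10.3 TPM in 2 and Sdc4 above 13.1 TPM in 1. Tmem8c in the 8 libraries was 0.12, 0.14, 0.29, 0.47, 12.1, 13.9, 14.9 and 22.3 TPM.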

How the results depend on the processing

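Counts of the 7 genes called kept within 1.5 times under a pseudocount of 0.1 (but 2 in place of 0 for contralateral muscle against control), no filter on low values, non-running groups alone, the rat number covariate, averaged control muscles and the fit with the rat as a replicate block, which gave 6 and 5 against control at 3 and 7 days and changed no call. With size factors the count went from 5 to 3 in unrepaired injured against contralateral muscle at 7 days, from 2 to 1 at 28 days, from 5 to 3 and from 6 to 3 in the grafted arm at 3 and 7 days, from 5 to 3 in running rats at both days, and from 2 to 1 for 14 against 7 days. Of 259 values of single genes, 22 lost and 5 gained a call under that scaling. With all libraries kept it went to 0 for running against non-running rats at 28 days and to 1 for 14 against 7 days, and Cav3 in unrepaired injured against contralateral muscle at 7 days reversed to 1.24, where libraries with few detected genes enter by construction. Of the 259 values 6 then lost a call, 1 gained one and 1 was reversed. Unrepaired against contralateral muscle, Sdc4 at 3 days (1.15, limma adjusted p = 0.0834) and Itga7 at 7 days (0.56) lost it. Cdh15 at 7 days gained it there (1.46), and Sdc3 against control at 7 days lost it (0.74). With the adjusted p alone the counts at 14 and 28 days against control were 5 and 5 (in place of 2), against contralateral muscle 4 (unrepaired, 14 days), 6 and 4 (grafted, 14 and 28 days) and 6 (running, 14 days), and 3 for MMG against no repair at 7 days, 7 for 14 against 7 days and 4 for contralateral muscle at 3 days. The share of all genes at adjusted p alone is not given here. At an unadjusted p under 0.05 the share of all genes was 74.2% and 73.7% against control. Against contralateral muscle it was 67.2% (unrepaired), 71.7% and 66.3% (grafted) and 79.7% (running). For the last 3 comparisons it was 27%, 73.3% and 70.9%. Leaving out 1 muscle at a time moved the counts to 1 to 2 in unrepaired injured against contralateral muscle at 28 days and to 0 to 1 for running at 28 days. Of 2002 such values of single genes 16 lost and 13 gained a call. The depth of single libraries cannot be read from TPM, and levels under 1 TPM (Tmem8c and Cdh2 in uninjured muscle) carry fold changes that depend on the pseudocount.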

Other observations

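The library of the contralateral muscle of rat 11 is labelled day 3 while the other libraries of that rat are labelled day 7, so it was placed in no group. It held Tmem8c at 0.79 TPM, Cdh2 at 0.49 TPM, Sdc3 at 4.49 TPM, Sdc4 at 6.63 TPM, Cdh15 at 8.58 TPM, Itga7 at 28.2 TPM and Cav3 at 158 TPM. In the 8 grouped contralateral muscles of 3 days Cdh15 was 14.7 TPM or above, and in the 26 of later days it was 10.4 TPM or below.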
